A study of Mus musculus with 10 samples.

Results

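The 5 genes described here, which were lower in the hearts of iSOD2 mice, are Zmiz1, Atn1, Celsr2, Gal3st3 and Npepps. They were found by symbol in the deposited count table, where they are 5 of 24537 genes, and all 5 passed the filter of 10 counts summed over the libraries that left 17728 genes. They were chosen by their fall between the genotypes in these same hearts, so their genotype differences are given below as a description with no test. Tests were made of the differences between sexes and litters and of the dependence of the genotype difference on either, which the choice did not use directly. The genotypes differed in their number of females, so the sex difference is not wholly independent of the choice.

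RNA was sequenced from heart tissue of mice aged 6 weeks. The 5 controls carried the transactivator alone (Rosa26-rtTA2+/-;TRE-SOD2-shRNA-/-), and the 5 iSOD2 mice carried it together with 1 copy of a hairpin against Sod2 (Rosa26-rtTA2+/-;TRE-SOD2-shRNA+/-). All dams, wild-type C57BL/6J females mated with hairpin-carrying sires, were fed doxycycline chow from mating until they gave birth, so both genotypes were exposed to the drug in utero and the hairpin could be switched on in that period only. The hairpin sits at the Col1a1 locus under a TRE promoter, and its transactivator is driven from the Rosa26 locus, which is active in most tissues, so the knockdown was not restricted to heart muscle. There were 3 male and 2 female controls beside 2 male and 3 female iSOD2 mice, and 2 mice of each genotype came from one litter (A) and 3 from another (B).

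The 5 genes encode proteins of unrelated function. Zmiz1 encodes a coactivator of the PIAS-like family, with a zinc finger of the kind found in SUMO ligases, that works with Notch1 and with nuclear receptors and is needed for vessel formation in the mouse embryo. Atn1 encodes atrophin-1, a nuclear corepressor whose polyglutamine expansion in humans causes a neurodegenerative disease. Celsr2 encodes an atypical cadherin with several membrane-spanning segments, one of the core components by which cells of a sheet align their polarity, a process that also shapes the outflow tract of the developing heart. Gal3st3 encodes a Golgi sulfotransferase that adds sulfate to galactose on glycans. Npepps encodes the puromycin-sensitive aminopeptidase, a cytosolic enzyme that trims peptides from their amino end.

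The genes lie on 5 chromosomes (mm10). Zmiz1 (NM_183208) spans chr14:25459185-25666743 on the plus strand, with 24 exons and 7495 bases of exon. Atn1 (NM_007881) spans chr6:124742544-124756487 on the minus strand, with 10 exons and 4384 bases. Celsr2 (NM_017392) spans chr3:108390848-108415494 on the minus strand, with 34 exons and 10508 bases. Gal3st3 (NM_001024717) spans chr19:5298331-5308739 on the plus strand, with 3 exons and 2417 bases. Npepps (NM_008942) spans chr11:97205856-97280576 on the minus strand, with 23 exons and 4116 bases, and lies 2.25 Mb from Col1a1, the locus that carries the hairpin. Among the 12149 genes that averaged 50 or more normalized counts (counts divided by the size factor of the library), the exon lengths of Celsr2 and Zmiz1 stood at the 98.2 and 94.1 percentile, those of Atn1 and Npepps at the 73.4 and 69.7 percentile, and that of Gal3st3 at the 37.1 percentile. Transcripts of 4 of the 5 were rich in G and C, with a GC content of 62.0% for Atn1, 58.8% for Gal3st3, 58.4% for Celsr2 and 55.4% for Zmiz1 beside a median of 50.4% over these genes. The Npepps transcript, at 47.9%, was below that median.

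The RefSeq promoter table (GRCm38.p6) matched 3 of the 5 genes, Zmiz1, Celsr2 and Npepps. Their 250 bases upstream of the start site are shown because genes whose levels moved together in the same hearts may be compared by what lies in front of them. Zmiz1 is read at chr14:25458935-25459184 on the plus strand, Celsr2 at chr3:108415580-108415829 and Npepps at chr11:97280577-97280826, both on the minus strand. Capitals mark GC boxes (GGGCGG on either strand, overlapping matches included).
Zmiz1: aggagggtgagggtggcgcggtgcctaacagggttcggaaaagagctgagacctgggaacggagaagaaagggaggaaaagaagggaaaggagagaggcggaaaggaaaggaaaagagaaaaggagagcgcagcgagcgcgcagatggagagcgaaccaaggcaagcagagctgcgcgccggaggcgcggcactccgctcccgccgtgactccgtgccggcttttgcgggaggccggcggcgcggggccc
Celsr2: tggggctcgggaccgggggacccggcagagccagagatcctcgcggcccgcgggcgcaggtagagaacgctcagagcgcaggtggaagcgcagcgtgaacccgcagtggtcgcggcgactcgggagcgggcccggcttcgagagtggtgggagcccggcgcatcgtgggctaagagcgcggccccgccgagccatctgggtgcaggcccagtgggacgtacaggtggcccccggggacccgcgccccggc
Npepps: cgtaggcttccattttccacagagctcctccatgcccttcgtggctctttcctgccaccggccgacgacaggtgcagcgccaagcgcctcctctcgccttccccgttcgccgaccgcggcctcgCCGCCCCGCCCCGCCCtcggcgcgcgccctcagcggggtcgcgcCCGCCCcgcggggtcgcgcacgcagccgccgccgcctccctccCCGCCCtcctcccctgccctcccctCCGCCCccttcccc
The Celsr2 start in RefSeq lies 85 bases upstream of the start of the counted transcript. All 3 stretches were rich in CpG, with 25 CpG in Zmiz1, 32 in Celsr2 and 35 in Npepps, whereas the median over 32851 promoters was 6. The Npepps stretch held 6 GC boxes and the Zmiz1 and Celsr2 stretches 0, where 32.7% of all promoters held at least 1. The other motifs were searched on both strands, and each was found in 0 of the 3 stretches. These were CCAAT (in 33.8% of all promoters), TATAAA (12.4%), the E box CACGTG (6.02%), the antioxidant response element core TGACNNNGC (10.2%) and the FOXO site TGTTTAC (3.17%).

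Libraries held 16448090.5 to 24263085.5 counts over genes, and no 2 libraries agreed within sampling noise. Sod2 itself ran from 9561 to 11019 normalized counts in controls and from 10117 to 11306 in iSOD2 hearts, for which DESeq2 gave a log2 fold change of 0.028 (SE 0.051) and an adjusted p of 0.806. With doxycycline withdrawn at birth, this level does not check the genotype labels. Markers of ventricular muscle were present in every library, with 8 of 8 in the table and summed levels that overlapped between genotypes. In RNA from bulk tissue, fewer cells of a type and less RNA per cell cannot be told apart.

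Zmiz1 was lower in every iSOD2 heart than in every control. The controls (mice 1, 2, 3, 4 and 6) had 1342, 1352, 1394, 993 and 1164 normalized counts, and the iSOD2 mice (5, 7, 8, 9 and 10) had 963, 912, 867, 739 and 665. The male controls 1, 2 and 3 lay close together at the top, the female controls 4 and 6 lay between them and the iSOD2 mice, and the highest iSOD2 mouse was 2.98% below control 4. The mean went from 1249 ± 168 to 829 ± 124 (SD, n = 5 each), or 66.4% of the control level. The log2 fold change was −0.59 (SE 0.12).

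Atn1 also had the male controls above the female ones and both above the iSOD2 mice. Its normalized counts were 315, 309, 317, 232 and 254 in controls and 208, 208, 201, 183 and 158 in iSOD2 hearts. The gap between the lowest control, again control 4, and the highest iSOD2 mouse was 24.0 normalized counts, the widest of the 5 genes as a share of the lowest control (10.3%). The mean went from 285 ± 39.6 to 191 ± 21.4 (SD, n = 5 each), and the log2 fold change was −0.57 (SE 0.12).

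Celsr2 was the longest and, per kilobase of exon, the scarcest of the 5. Its normalized counts were 258, 295, 292, 213 and 243 in controls and 197, 198, 162, 137 and 145 in iSOD2 hearts. The groups did not overlap, and the mean went from 260.2 ± 34.4 to 168 ± 28.7 (SD, n = 5 each), and the log2 fold change was −0.63 (SE 0.13).

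Gal3st3 had the largest fall and, relative to its mean, the widest spread among controls. Its normalized counts were 222, 236, 305, 182 and 193 in controls and 142, 171, 122, 145 and 114 in iSOD2 hearts. Control 3 stood above the other 4 controls, and the male iSOD2 mouse 7 was the nearest of its group to the controls, 10.8 normalized counts below control 4. The mean went from 228 ± 48.5 to 139 ± 22.4 (SD, n = 5 each), or 60.9% of the control level. The log2 fold change was −0.72 (SE 0.16).

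Npepps had the smallest fall and, relative to its mean, the smallest spread. Its normalized counts were 1639.6, 1712, 1769.8, 1609.95 and 1379.6 in controls and 1314, 1356, 1101, 1272 and 1277 in iSOD2 hearts. Here control 6 was the lowest control and lay below the other 4 controls, with iSOD2 mouse 7 1.73% below it. The mean went from 1622 ± 149 to 1264 ± 97.1 (SD, n = 5 each), and the log2 fold change was −0.36 (SE 0.078).

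**Figure D1:**
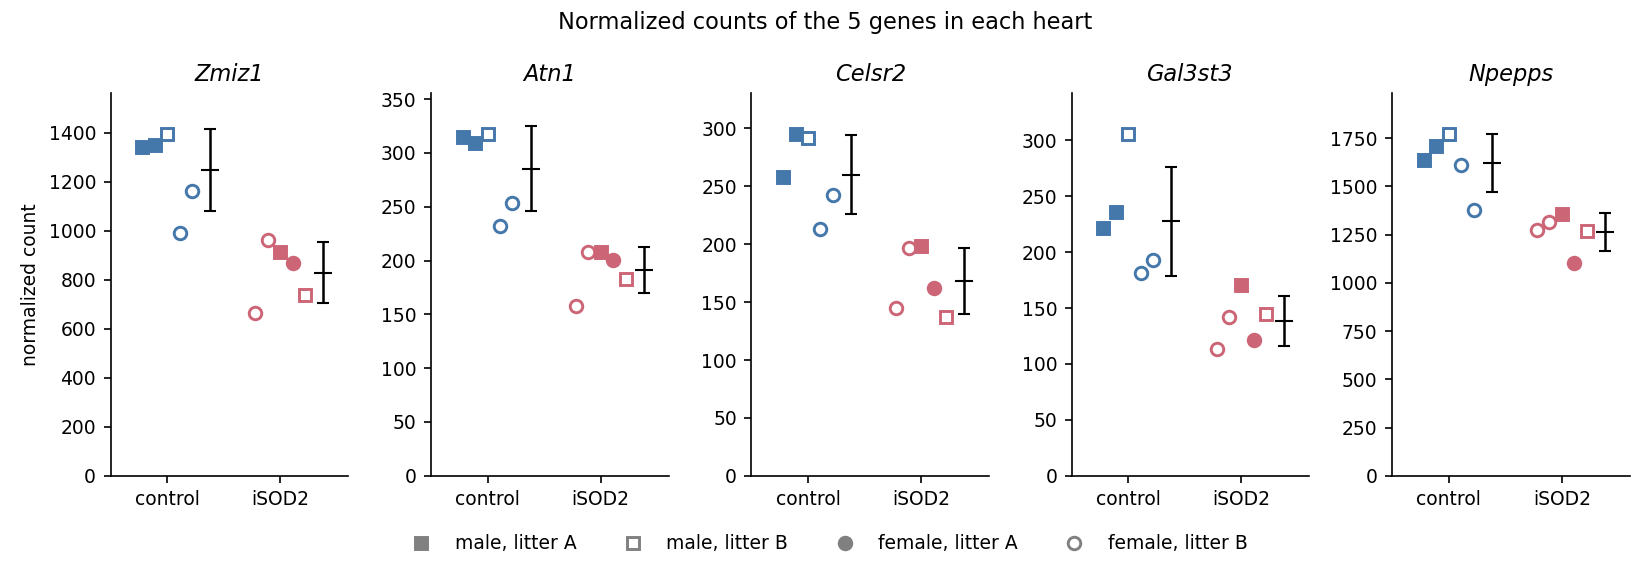
Normalized counts of Zmiz1, Atn1, Celsr2, Gal3st3 and Npepps in each heart (vertical axes from 0, squares for males, circles for females, filled for litter A, open for litter B), with the mean and SD of each genotype beside the points (n = 5 each). The 5 iSOD2 hearts sit below the 5 controls for each gene, and the 2 female controls are the lowest controls for each gene, close to the males for control 4 in Npepps.

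The comparison that was used to choose these genes called 161 of 9479 genes lower, or 1.7% (DESeq2, adjusted p at most 0.05 and a log2 fold change beyond 0.25), and 2.96% of genes in either direction. All 5 genes were among those called lower, and nothing is read from this since the choice fixed it. All 5 iSOD2 mice were below all 5 controls for 1.67% of the 17728 genes tested. Of the 12149 genes averaging 50 or more normalized counts, 9 had a log2 fold change as low as that of Gal3st3 or lower, the gene itself included, and the numbers were 14 for Celsr2, 18 for Zmiz1, 22 for Atn1 and 194 for Npepps. With edgeR's quasi-likelihood test 0 genes of the table were called, and 2718 had an unadjusted p under 0.05.

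Levels between the genes were compared per kilobase of exon. In controls Npepps had 394 ± 36.3 normalized counts per kilobase, Zmiz1 167 ± 22.4, Gal3st3 94.2 ± 20.1, Atn1 65.1 ± 9.03 and Celsr2 24.8 ± 3.27 (SD, n = 5 each). In iSOD2 hearts the levels were 307 ± 23.6, 111 ± 16.5, 57.4 ± 9.27, 43.7 ± 4.87 and 16.0 ± 2.73 in the same order. Neighbours in this order did not overlap between genes in either genotype, except for Gal3st3 and Atn1, whose ranges met in iSOD2 hearts only. Among the genes averaging 50 or more normalized counts, Npepps stood at the 75.6 percentile of this level and Celsr2 at the 3.45 percentile.

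The spread between mice was larger than counting error for all 5 genes. Raw counts per library were 1248.5 to 1813 for Npepps, 705 to 1484 for Zmiz1, 167.5 to 348 for Atn1, 140.5 to 285 for Celsr2 and 120.5 to 245.5 for Gal3st3. The coefficient of variation among controls was 13.5% for Zmiz1, where counting error alone would give 2.92%, and 21.3% for Gal3st3, where it would give 6.86%. It was 9.21% for Npepps, beside 2.56% from counting.

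The 5 genes ordered the mice alike, but the choice favoured controls above iSOD2 mice, and the usual r between other pairs of genes was not taken. Ranked from lowest to highest in each gene, controls 1, 2 and 3 took ranks 8 to 10 for all 5 genes and controls 4 and 6 took ranks 6 and 7. Among iSOD2 mice, mouse 7 ranked 4 or 5 for each gene and mouse 10 ranked 1 to 3. Over the 10 mice Pearson's r between pairs of the 5 genes ran from 0.79 to 0.99 (10 pairs), a description that the shared fall between genotypes fixes in part. With the mean of each genotype taken off, r ran from 0.29 to 0.96, with a median of 0.70, and these points still share their libraries, sex and litter.

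The log2 fold change depended on exon length across the transcriptome, so the 5 genes were set beside genes of like length and level. Genes averaging 50 or more normalized counts were split into 10 bins by exon length, and the median log2 fold change went from 0.13 in the bin of shortest genes to −0.091 in that of the longest. Per library, the slope of log2 level on log2 exon length (relative to the mean of all mice) averaged 0.033 among controls (SD 0.017, n = 5) and −0.033 among iSOD2 hearts (SD 0.014, n = 5). Taking levels relative to the mean of all mice makes these averages equal and opposite, so only their difference is informative. The slopes ran from 0.0062 to 0.053 in controls and from −0.051 to −0.018 in iSOD2 hearts, with no overlap, and control 4, the lowest control for 4 of the 5 genes, had the lowest slope of the controls. With the trend on exon length removed from each library, the log2 fold changes were −0.50 for Zmiz1, −0.52 for Atn1, −0.52 for Celsr2, −0.73 for Gal3st3 and −0.32 for Npepps.

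**Figure D2:**
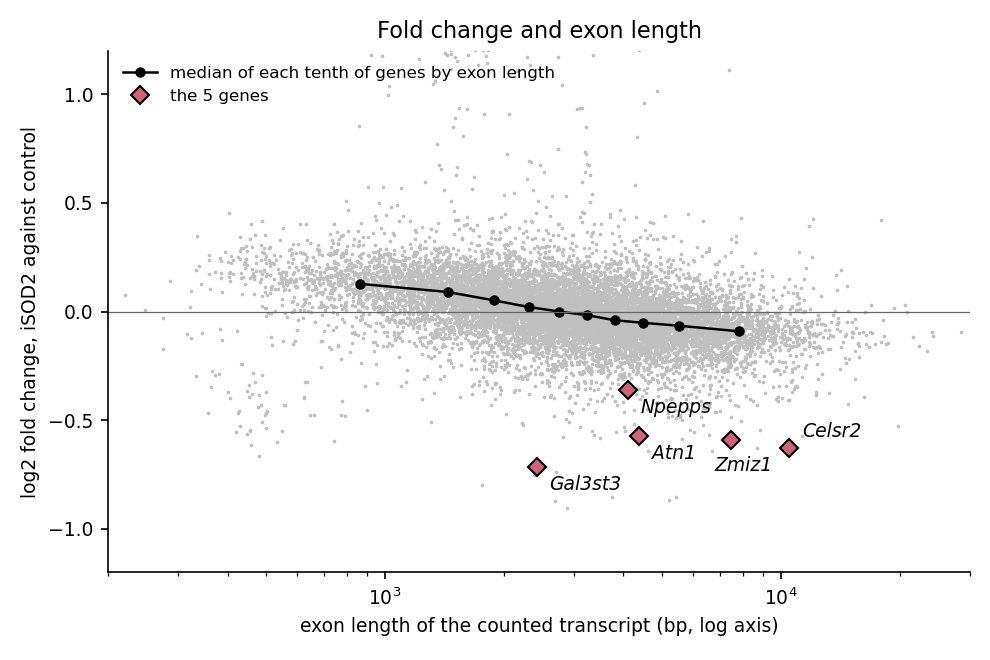
Log2 fold change of iSOD2 against control hearts by exon length (log axis) for genes averaging 50 or more normalized counts (grey points, 77 outside the axes), with the median of each of 10 bins by length (black line) and the 5 genes (diamonds). The medians fall from 0.13 to −0.091 with length, and Zmiz1, Atn1, Celsr2, Gal3st3 and Npepps lie between −0.36 and −0.72.

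For each gene, the genes of near exon length whose mean level lay within 1.5-fold were taken as its like genes. Zmiz1 had 325 like genes, of 5996 to 9367 bases, with a median log2 fold change of −0.080, and 1 of them, Polr2a, the gene of the catalytic subunit of RNA polymerase II, was lower than Zmiz1 (−0.64). Atn1 had 568, of 3508 to 5473 bases, with a median of −0.047, and 1 of them, the macrophage chemokine receptor gene Cx3cr1, was lower (−0.85). Celsr2 had only 26, of 8409 to 12733 bases, with a median of −0.12, and the lowest of them, Setd1b, which encodes a histone H3 lysine 4 methyltransferase, was at −0.55, above Celsr2. Gal3st3 had 664, of 1934 to 3021 bases, with a median of 0.0095, and 0 of them were as low as Gal3st3. Npepps had 610, of 3303 to 5141 bases, with a median of −0.049, and 7 of them were as low or lower, Atxn2 (−0.39) among them. The 5 genes were chosen for their fall, so the choice favoured a low place among like genes. All 5 iSOD2 mice were also below all 5 controls for 21 of the like genes of Zmiz1 and 12 of those of Atn1. The numbers were 2 for Celsr2, 2 for Gal3st3 and 19 for Npepps. The named like genes other than Atxn2 and Setd1b were picked after their values were seen.

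**Figure D3:**
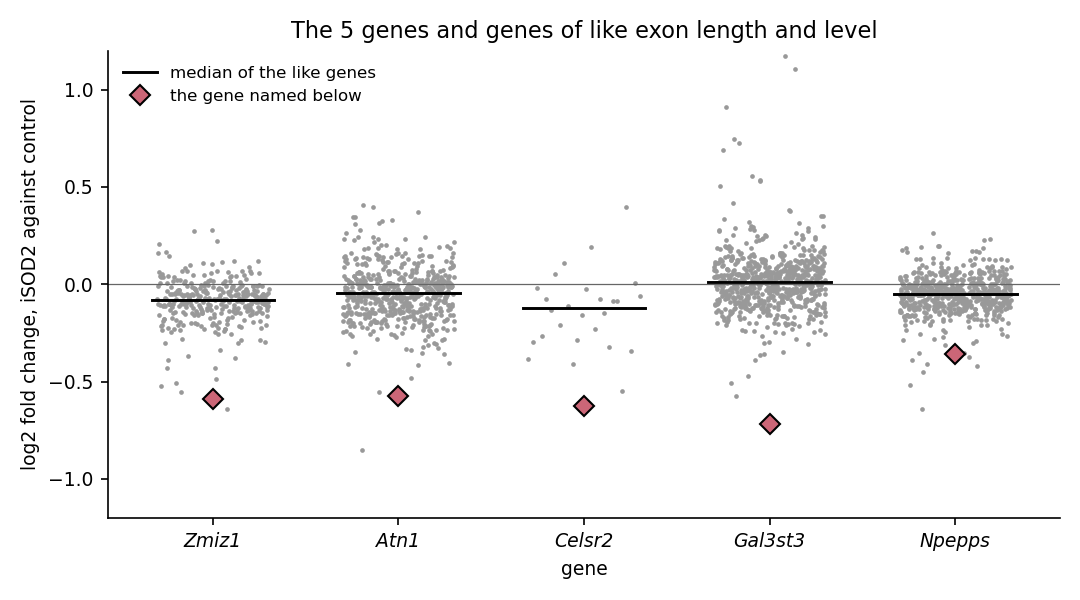
Log2 fold change of iSOD2 against control hearts for each of the 5 genes (diamonds) and for its genes of like exon length and level (grey points, 5 outside the axes), with their median (black bars). Zmiz1 and Atn1 each have 1 like gene below them, Celsr2 and Gal3st3 have 0 and Npepps has 7. The 5 genes were chosen for their fall, which favoured these low places.

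The level in each heart relative to the median of the like genes was then taken, with the control mean set to 0 on the log2 scale. For Zmiz1 the controls ran from −0.26 to 0.16 and the iSOD2 hearts from −0.76 to −0.28, a difference of −0.51. For Atn1 the ranges were −0.25 to 0.16 and −0.80 to −0.38, a difference of −0.52. Both kept the groups apart, but for Zmiz1 the gap between control 4 and iSOD2 mouse 5 was narrow. For Celsr2 the ranges were −0.22 to 0.16 and −0.86 to −0.15, and here the groups overlapped, since iSOD2 mice 5 and 7 stood above control 4. The Celsr2 difference was −0.48. For Gal3st3 the ranges were −0.32 to 0.46 and −1.03 to −0.39, with the largest difference of the 5 genes, −0.73. For Npepps they were −0.19 to 0.13 and −0.49 to −0.22, a difference of −0.32.

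**Figure D4:**
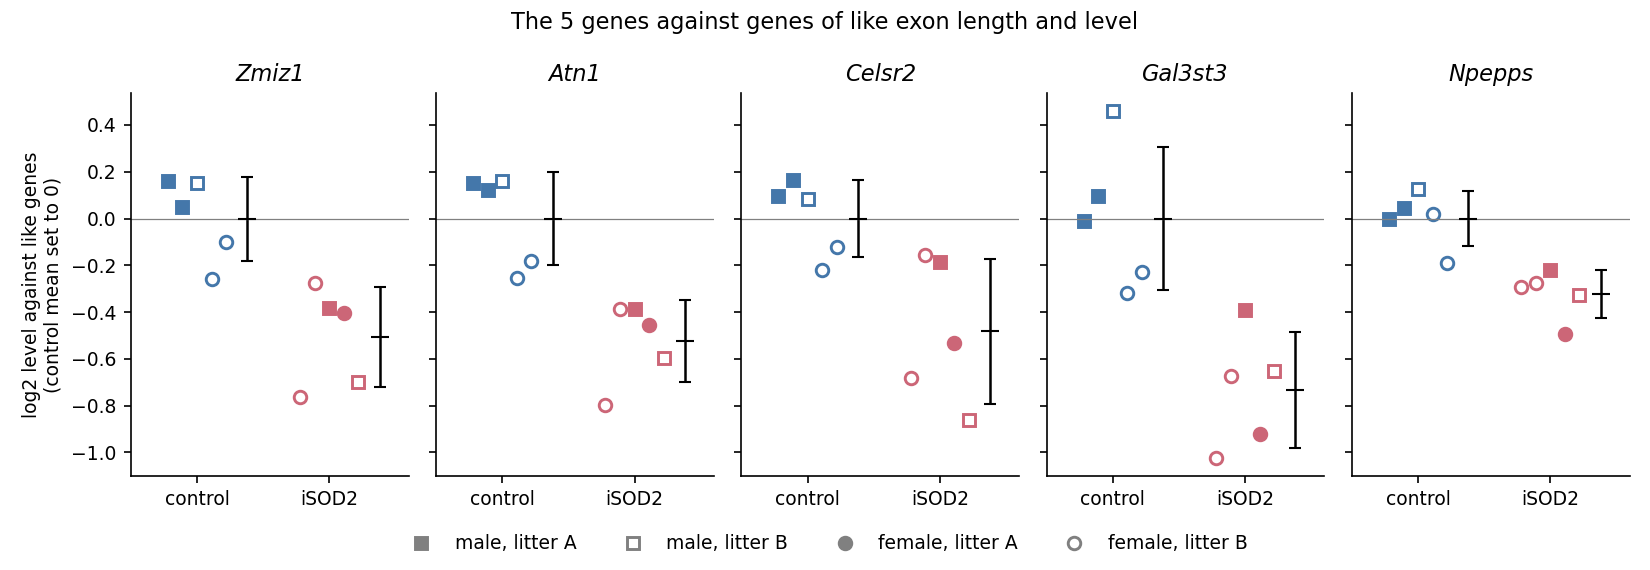
Log2 level of each of the 5 genes in each heart relative to the median of its genes of like exon length and level, with the control mean set to 0 (squares for males, circles for females, filled for litter A, open for litter B) and the mean and SD of each genotype (n = 5 each). The genotypes overlap for Celsr2, where iSOD2 mice 5 (−0.15) and 7 (−0.18) lie above control 4 (−0.22), and for no other of the 5 genes.

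Sex was tested with genotype in the model, because the genotypes did not have the same number of females. The choice made no direct use of sex, but with more females among iSOD2 mice the choice favoured genes that were lower in females. With sex as a covariate, the log2 fold changes between genotypes were −0.55 for Zmiz1, −0.52 for Atn1, −0.59 for Celsr2, −0.63 for Gal3st3 and −0.33 for Npepps. The log2 difference of females from males was −0.39 for Gal3st3 (SE 0.13, 95% interval −0.64 to −0.13, DESeq2 adjusted p 0.202). It was −0.21 for Atn1, −0.17 for Zmiz1, −0.15 for Celsr2 and −0.14 for Npepps, with 95% intervals within −0.43 and 0.11 (DESeq2 adjusted p 0.679 to 0.968). Among these intervals, only that of Npepps, −0.28 to −0.0043, left out 0. None of the 5 was called, and DESeq2 called 0.483% of 16348 genes, too small a share for 0 of 5 to set them apart. Gal3st3 and Npepps, 2 of the 5, had an unadjusted p under 0.05 with DESeq2 and with edgeR alike. Over all genes, 1170 had an unadjusted p under 0.05 with DESeq2 and 1503 with edgeR. Among controls the 2 females were below the 3 males for all 5 genes, whose levels were correlated. The share of all genes with this order was not taken. The slopes on exon length of these controls had the same order, at 0.0062 and 0.031 in females and 0.032, 0.044 and 0.053 in males. For Gal3st3 the 3 iSOD2 females were also below the 2 iSOD2 males, at 114 to 142 against 145 and 171 normalized counts. For Zmiz1 the iSOD2 females (665 to 963) spanned the iSOD2 males (739 and 912).

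The fall was also measured within each sex. In males alone, the log2 fold change was −0.72 for Zmiz1, −0.69 for Atn1, −0.75 for Celsr2, −0.69 for Gal3st3 and −0.38 for Npepps, and in females alone it was −0.38, −0.36, −0.44, −0.58 and −0.28. The groups did not overlap over all 10 hearts for any of the 5 genes, so they could not overlap within either sex. The difference between the sexes in the genotype effect was 0.35 for Zmiz1 (log2, SE 0.21, 95% interval −0.055 to 0.75), 0.33 for Atn1, 0.31 for Celsr2, 0.11 for Gal3st3 and 0.096 for Npepps, each with a DESeq2 adjusted p of 0.99995. Over all genes this interaction was called for 0% of 17725 genes by DESeq2, with 210 at an unadjusted p under 0.05 and 0 of the 5 genes among them, and for 0 genes by edgeR, with 487 at an unadjusted p under 0.05.

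Litter was tested in the same way. The log2 difference of litter B from litter A was −0.19 for Atn1 (95% interval −0.41 to 0.028), −0.18 for Zmiz1, −0.16 for Celsr2, −0.074 for Gal3st3 and −0.0057 for Npepps, with DESeq2 adjusted p of 0.444 to 0.989. None of the 5 was called, and DESeq2 called 3.5% of 15654 genes, too small a share for 0 of 5 to set them apart. None had an unadjusted p under 0.05 with DESeq2 or edgeR, while over all genes 2297 did with DESeq2 and 2852 with edgeR. The genotype difference in litter A was −0.60 for Zmiz1, −0.61 for Atn1, −0.61 for Celsr2, −0.65 for Gal3st3 and −0.45 for Npepps, and in litter B it was −0.58, −0.54, −0.64, −0.76 and −0.30. As within each sex, the groups could not overlap in either litter, since they did not overlap over all 10 hearts. The difference between litters in the genotype effect ran from −0.11 for Gal3st3 to 0.15 for Npepps (DESeq2 adjusted p 0.99998 for all 5), with 95% intervals of −0.74 to 0.53 and −0.16 to 0.46. This interaction was called for 0.00564% of 17721 genes, none of them among the 5.

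**Figure D5:**
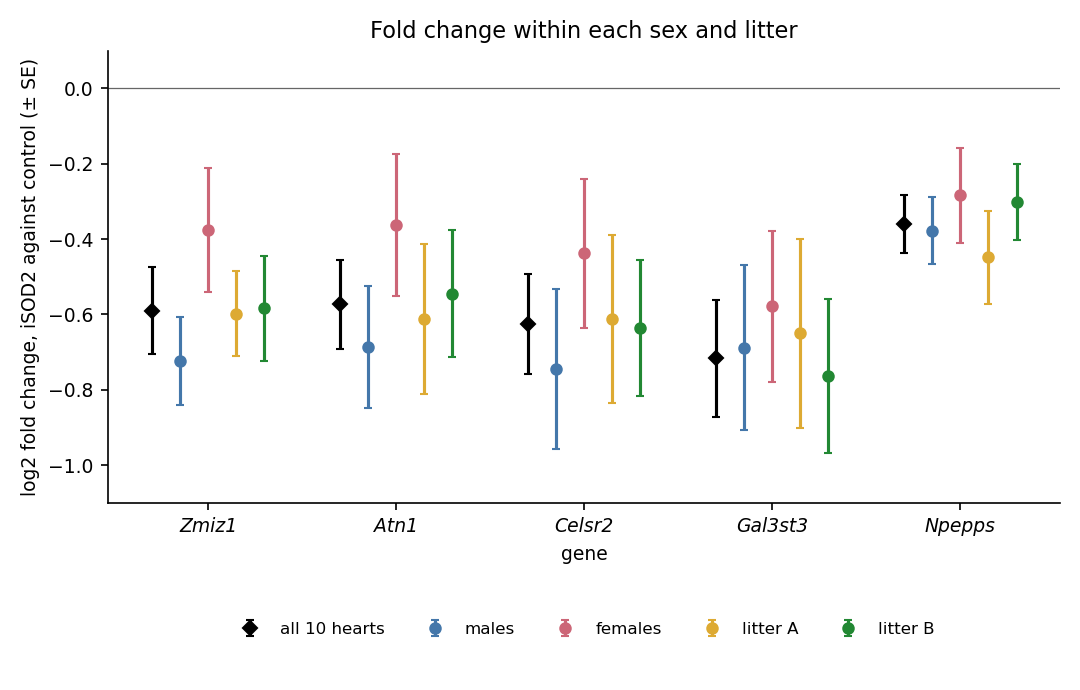
Log2 fold change of iSOD2 against control hearts with its SE for each gene in all 10 hearts, in males (3 controls, 2 iSOD2), females (2 and 3), litter A (2 and 2) and litter B (3 and 3). All values lie below 0, from −0.28 for Npepps in females to −0.76 for Gal3st3 in litter B. The genotypes do not overlap over all 10 hearts, so the direction in each subset was fixed in advance.

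Genes related in function to the 5 were read out in the genotype comparison, from lists of 137 genes of which 129 were tested and 95 had an adjusted p. Of these 95, 5 were called lower and 0 higher, where DESeq2 called 1.7% of all genes lower, and the median log2 fold change of the 129 was −0.044 beside −0.0018 over all genes tested. The lists had median exon lengths of 2702 to 7283 bases, beside 2997 over genes averaging 50 or more normalized counts, and longer genes tended to be lower. Of the like genes, 4.92% were called lower for Zmiz1, 1.78% for Atn1, 16.7% for Celsr2, 0% for Gal3st3 and 1.31% for Npepps. An excess of calls over genes of like length was not tested. Of the 5 calls, 0 remained with edgeR, whose adjusted p for them were 0.0664 to 0.137, while all 5 had an edgeR unadjusted p under 0.05.

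Around Zmiz1, 1 of 19 genes of the SUMO pathway, all with an adjusted p, was lower, and this was Zmiz2, the closest relative of Zmiz1 (log2 fold change −0.30, SE 0.079, DESeq2 adjusted p 0.00744). Zmiz2 was also called with the exon length trend removed (−0.26, adjusted p 0.0382), but not with the trend on GC content removed as well (adjusted p 0.0718), not without control 3 (−0.29, adjusted p 0.0512) and not without control 2, where its log2 fold change of −0.25 came just short of the limit (adjusted p 0.0422). Of 14 Notch pathway genes with an adjusted p, 0 were called, and the log2 fold changes of the list ran from −0.25 to 0.25. Around Atn1, its paralog and binding partner Rere was lower (−0.25, SE 0.067, DESeq2 adjusted p 0.00719), the 1 call among 9 atrophin partners with an adjusted p, and was not called with the length trend removed (−0.17, adjusted p 0.246), nor without control 3 (−0.24, adjusted p 0.0560). With sex as a covariate (−0.24, adjusted p 0.0217), or when control 1 or 2 or iSOD2 mouse 9 or 10 was left out (−0.24 to −0.23, adjusted p 0.0291 to 0.0386), the adjusted p of Rere stayed under 0.05 and its log2 fold change came just short of the limit of 0.25. Of 7 other genes with an adjusted p whose polyglutamine expansion causes disease, 1 was lower, Atxn2, which encodes an RNA-binding protein (−0.39, SE 0.088, DESeq2 adjusted p 0.00144), and it was called with the length trend removed too (−0.33, adjusted p 0.00841).

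Around Celsr2, 2 of 17 planar cell polarity genes with an adjusted p were lower. Dvl3, which encodes a Dishevelled protein of Wnt signalling, was at −0.55 (log2, SE 0.11, DESeq2 adjusted p 0.000132) and was called with the length trend removed (−0.51, adjusted p 0.000803). Dchs1, which encodes a large protocadherin, had −0.32 (SE 0.099, DESeq2 adjusted p 0.0262), but it is 10628 bases long and was not called with the length trend removed (−0.22, adjusted p 0.340) nor when control 3 or 6 or iSOD2 mouse 7 or 8 was left out. The other Celsr genes were not called, with −0.35 for Celsr1 (adjusted p 0.0585) and −0.13 for Celsr3 (adjusted p 0.606).

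Around Gal3st3, 0 of 10 sulfotransferase and sulfate supply genes with an adjusted p were called. The other members of its family were scarce, with 0.5 to 4.5 raw counts per library for Gal3st1, 21 to 51.5 for Gal3st2 and 20.5 to 38.5 for Gal3st4, and had no adjusted p. Around Npepps, 0 of 19 peptidase genes with an adjusted p were called. The aminopeptidase genes Erap1, Lnpep and Rnpep had log2 fold changes of −0.042, −0.13 and −0.013 (adjusted p 0.352 to 0.951), and Tpp2, which encodes a giant cytosolic peptidase, had −0.16 (adjusted p 0.195).

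By the correlation of log2 levels over the 10 mice, Atn1 and Zmiz1 were each the gene most like the other (Pearson's r 0.99) among genes averaging 50 or more normalized counts. Next most like Zmiz1 was Rreb1 (0.98) and most like Atn1 after Zmiz1 was Map3k12 (0.98). Pitpnm2 (0.98) and Setd1b (0.97) were most like Celsr2, Iqsec2 (0.98) and Arid1a (0.97) most like Gal3st3, and Rab21 (0.98) and Atxn2 (0.97) most like Npepps. With the genotype means taken off, Atn1 and Zmiz1 were again nearest to each other (0.96), followed by Cic (0.96) for Zmiz1 and by Map3k12 (0.95) for Atn1. The nearest genes were then Pitpnm2 (0.96) for Celsr2, Hspa12a (0.95) and Ppp2r5c (0.95) for Gal3st3, and Tfg (0.97) and Usp8 (0.96) for Npepps. The 50 genes most like each of the 5 over the 10 mice had median exon lengths of 4944.5 to 7051 bases, and with the genotype means taken off of 3480.5 to 5624 bases, beside 2997 over all these genes. Each r given here is among the highest of all these genes, and the usual r between genes was not taken. Over the 10 mice, r is also fixed in part by the fall between genotypes for which the 5 genes were chosen.

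Genes next to the 5 in the genome were read out in the same fit. The nearest gene on either side was tested for 8 of the 10 sides, with log2 fold changes from −0.13 for Psrc1, with 6.5 to 13 raw counts per library, to 0.18 for Grcc10, which lies 1464 bases from Atn1 (DESeq2 adjusted p 0.105), and none was called, 6 of them having an adjusted p. Within 250 kb, 0 of 5 genes with an adjusted p were called around Zmiz1, 0 of 10 around Celsr2 and 0 of 7 around Npepps, while 1 of 12 was called around Atn1, C1ra, which was higher, and 1 of 18 around Gal3st3, Pacs1, which was lower. C1ra and Pacs1 were picked after their values were seen. Another 3 rows of the table overlap Zmiz1 on its own strand, so counts there are uncertain where exons are shared. Of these, 4931406H21Rik had a log2 fold change of 0.14 (DESeq2 adjusted p 0.392), Israa −0.19 with no adjusted p, and Mir3075 0 to 1.5 raw counts.

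Markers of other cell types were read out beside these results. Summed levels of fibroblast, endothelial, macrophage, lymphocyte, neural, atrial and erythroid markers overlapped between genotypes with 0 genes called, and 2 of 5 smooth muscle and pericyte markers, Myh11 (0.28) and Tagln (0.40), were called higher in iSOD2 hearts. Of the neural markers, Th and Snap25 had 0 counts in every library. The hepatocyte list moved most with genotype. All 8 of its genes were in the table and 0 were at 0 in any library, their summed level ran from 109 to 9684 normalized counts in controls and from 4702 to 20115 in iSOD2 hearts, and 0 were called. The part of these markers in the fall of the 5 genes was not tested.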

How the data were processed

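Total RNA of heart tissue, 5 control and 5 iSOD2, was made into stranded libraries depleted of ribosomal RNA. The authors aligned reads to mm10 with STAR and counted reads over the exons of 1 transcript for each gene with HOMER. Their methods give trimming with Trim Galore where reads held adaptors, without saying whether these libraries did. The authors deposited unnormalized, expected or estimated counts in steps of 0.5 that were rounded to whole numbers here, with another column for exon length. The counting command stated no strand option. Counts over genes were 16448090.5 to 24263085.5 per library, and the spread between mice, which includes counting error, set the precision.

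Genotype, sex and litter came from the labels. Genes with fewer than 10 summed counts were left out. Genotypes were compared with DESeq2 1.42.0 (Wald test, median-of-ratios size factors, R 4.3.3), with calls at an adjusted p of at most 0.05 and an absolute log2 fold change above 0.25, as in the study's methods. Genes removed by independent filtering have no adjusted p. Sex and litter were tested with genotype as a covariate, and interactions in models with both terms. Scripts were tested on simulated data. Like genes used log2(normalized count + 0.5), correlations log2(normalized count + 1). GC content came from GENCODE transcripts of the same build (99.5% of genes) and promoters from RefSeq.

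Genes named are the 5, Sod2, called and nearest genes of the lists, the 2 most alike genes by each measure, genomic neighbours and overlapping genes. A gene that this rule gives is not reported here. Any other is said to have been picked after its values were seen. The 5 genes, lists and alternatives were chosen with earlier results of these data known. Alternatives were edgeR 4.0.16, TMM scaling, other filters and thresholds, covariates, trend removal (exon length, with and without GC content), each sex and litter alone, other windows for like genes, and leaving out each mouse. Of the peptidase list, Aopep had no row under that symbol.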

Additional observations from a re-analysis of the deposited data

Results flagged for a closer look

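Sod2 in control 6, at 9561 normalized counts, stood apart from the other 4 controls, with a gap to the nearest of them that was 0.747 of the range of the group, above the critical value of 0.71. It was the only such value among 24 groups of 5 hearts checked, namely each genotype for the normalized counts and relative levels of Zmiz1, Atn1, Celsr2, Gal3st3 and Npepps, for Sod2 and for the slope on exon length, where chance gives about 1.2.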

How the results depend on the processing

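The direction of all 5 genes was the same in every alternative, with log2 fold changes of −0.72 to −0.38 for Zmiz1, −0.69 to −0.36 for Atn1, −0.75 to −0.44 for Celsr2, −0.80 to −0.58 for Gal3st3 and −0.45 to −0.28 for Npepps. Since the 5 genes were chosen by this contrast, their direction and numbers of calls describe the choice and support nothing. The number called lower was 0 with edgeR and 0 in females alone, with 5 tests each, 2 of 5 in litter B alone, and 2 in litter A alone and 2 in males alone, where only 2 had an adjusted p. Leaving out 1 mouse gave 2 to 5, the lowest without control 1 (2) and without iSOD2 mouse 5 (3), where 2 and 3 had an adjusted p. The 5 calls among related genes became 10 with no fold-change threshold, 0 with edgeR, 3 with the length trend removed, 2 with the length and GC trends removed (chosen after seeing the data), 2 in litter A, 0 in litter B and 0 in females alone. Leaving out 1 mouse gave 2 to 8 (2 without control 3, 3 without control 2, 8 without control 4). Calls between sexes, between litters and for either interaction were 0 of the 5 genes under every alternative run. The differences from like genes moved by less than the spread between mice with narrower and wider windows, and without any 1 mouse they ran from −0.57 to −0.44 for Zmiz1, −0.59 to −0.45 for Atn1, −0.57 to −0.39 for Celsr2, −0.82 to −0.62 for Gal3st3 and −0.37 to −0.28 for Npepps. With the narrower window, Zmiz1 also overlapped between genotypes. No paired analysis was possible because no replicate number is shared between the genotypes, and litter entered as a covariate instead. With 2 or 3 mice of a sex or litter per genotype, the intervals of the interactions are wide.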
